A study of Mus musculus with 6 samples.

Results

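The genes described here encode 10 enzymes that make serine, asparagine, proline, alanine, aspartate and glutamine or that feed carbon into these routes: Phgdh, Psat1, Psph, Asns, Pycr1, Aldh18a1, Gpt2, Pck2, Got1 and Glul. They were taken by gene symbol from the 24346 symbols of each FPKM table, and each of the 10 was found once. Expression had been measured by RNA sequencing in 3 samples of parental cells and 3 samples of M8 cells. The parental cells (labelled MR1-overexpressing) are CT26, a mouse colorectal tumor line, carrying a retroviral copy of mouse MR1, the molecule that presents small metabolites to mucosal-associated invariant T cells. M8 (labelled as a mutant of these cells) carries the same MR1 copy and came out of a screen of clones grown from parental cells treated with the mutagen ENU, in which it activated a reporter T cell line more strongly than its parent. Among such mutants the paper pursued M8 because its surface MR1 was also higher than that of the parental cells. The sample titles of both lines carry the name CT26_cl9, and what cl9 stands for is not given in the sources used here. M8 is 1 clone, so that an effect of a mutation cannot be told apart from a difference between a single clone and its parent. The comparison asks which of these enzyme genes differed in level between M8 and parental cells.

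Serine is made from the glycolytic intermediate 3-phosphoglycerate by the successive action of Phgdh, Psat1 and Psph, and it supplies the carbon that serine hydroxymethyltransferases pass to folate. Asns makes asparagine from aspartate and glutamine, while Aldh18a1 and Pycr1 take part in making proline from glutamate. Gpt2 and Got1 are transaminases that join glutamate to alanine and to aspartate, Pck2 makes phosphoenolpyruvate in mitochondria, and Glul makes glutamine from glutamate and ammonia. Several of these genes are known targets of Atf4, a transcription factor whose translation rises when amino acids run short or proteins misfold. Tumor lines often express this group strongly.

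The sum of FPKM was between 593635 and 630264 in the 6 samples, and estimated from weakly expressed genes the depth relative to parental replicate 1 was 0.949 and 1.07 in the other parental samples and 0.771 to 0.877 in M8. Pearson's r over genes (not independent of each other) was 0.9935 to 0.9952 within a line and 0.989 to 0.992 between lines. Of 8 markers of colon epithelium, Epcam, Cdh1, Krt19 and Cdx2 were listed at 0 in every sample and only Krt18 and Krt20 had a mean of at least 1 FPKM, with a summed level of 39.7 to 56.4 FPKM in the parental samples and 47.5 to 49.3 in M8. The sum hides that Krt20 was lower in M8 (log2 fold change -0.50, limma adjusted p = 0.00438), while Krt18, the stronger of the pair, did not pass (0.18). The 4 markers at 0 are defining ones of the labelled tissue, colon. By contrast, 6 of 8 fibroblast markers reached a mean of 1 FPKM, with a summed level of 676 to 720 FPKM in the parental samples and 673 to 705 in M8. Most of that sum was Col1a2, which did not pass, but Pdgfra (-0.43) and Dcn (-0.38) were lower and Pdgfrb (0.25) was higher in M8 (limma adjusted p = 0.00903, 0.0245 and 0.00787). None of 7 leukocyte and 5 endothelial markers reached a mean of 1 FPKM, and the summed level of each of these sets was at most 0.567 FPKM in any sample. Their part in the results was not tested. In bulk RNA a lower level per cell and fewer cells with a transcript cannot be told apart.

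Expression of 7 of the 10 enzyme genes was higher in M8, that of 1 was lower, and that of 2 did not pass the test. Phgdh, Psat1, Psph, Asns, Aldh18a1, Gpt2 and Pck2 rose, Glul fell, and Pycr1 and Got1 had log2 fold changes near 0. The test was limma's moderated test on log2(FPKM + 1) over the 10597 genes with a mean of at least 1 FPKM, all 10 enzyme genes among them, with Benjamini-Hochberg adjustment and an adjusted p below 0.1. By that rule 37.7% of the genes tested were called, 21.2% as higher and 16.5% as lower in M8. The median log2 fold change was 0.30 over the 10 enzyme genes and 0.01 over all genes tested. The 7 genes that rose did so by 0.28 to 0.52 on the log2 scale, whereas the median of all genes called higher was 0.23, and for each of the 7 at most 6.77% of the tested genes had a higher fold change. None of the 10 changed as much as 1.5-fold. The values of the lines did not overlap in 8 of the 10 genes, with all M8 values above all parental values in 7 and below them in 1. The same held for 24.8% and 20.4% of all genes tested. The smallest p that an exact two-sided permutation test of 3 samples against 3 can give is 0.1, and each of these 8 genes reached it.

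**Figure D1:**
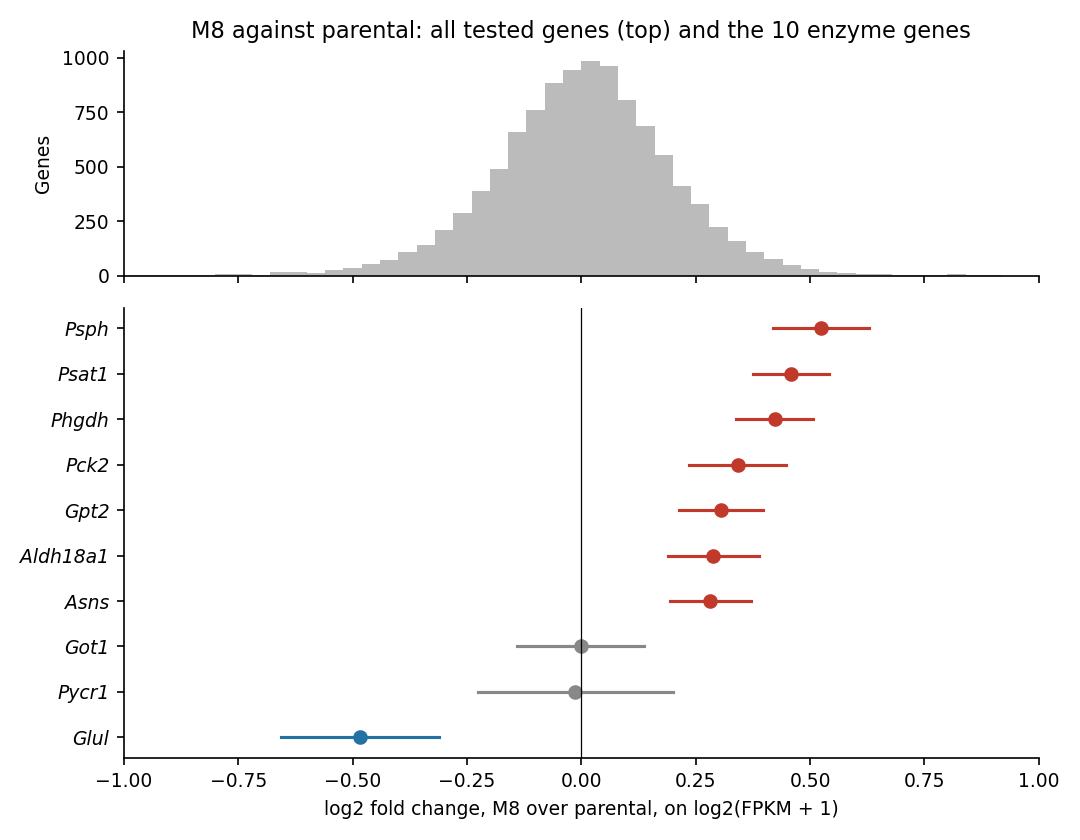
Upper plot: histogram of the log2 fold changes of M8 over parental cells for the genes tested, with 27 genes beyond 1 or -1 left out of view. Lower plot: log2 fold change of each of the 10 enzyme genes (points) with its 95% confidence interval from limma (lines), in red where higher, blue where lower and grey where not called. The intervals of 7 genes lie above 0, that of Glul lies below 0, and those of Got1 and Pycr1 span 0.

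The split of calls over all genes moved with the scaling of the samples, but that of the enzyme genes did not. There were 2250 higher and 1745 lower genes with the values as deposited, 2267 and 1738 after median centring, 1658 and 2209 after rescaling to TPM, 1820 and 1773 after quantile normalization, and 1470 and 2769 with upper-quartile scaling. Under each of these scalings, and with each of the 6 samples left out in turn, 7 of the enzyme genes were higher and 1 was lower.

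The enzyme genes are spread over 8 chromosomes of the mouse genome GRCm38 (mm10), with Psat1 (15905123 to 15925059), Aldh18a1 (40550257 to 40588463) and Got1 (43499752 to 43524605) all on chromosome 19. Phgdh lies on chromosome 3 (98313171 to 98339969), Psph on chromosome 5 (129765558 to 129787443), Asns on chromosome 6 (7675165 to 7693209) and Gpt2 on chromosome 8 (85492576 to 85528902). Pycr1 is on chromosome 11 (120638998 to 120643748), Pck2 on chromosome 14 (55540263 to 55550020) and Glul on chromosome 1 (153899929 to 153909723). These positions are those of RefSeq. Psph overlaps Cct6a, a chaperonin gene on the other strand. Aldh18a1 overlaps a pseudogene, Glul overlaps the microRNA gene Mir8114, and a pseudogene, Phgdh-ps1, is named after Phgdh. How the authors assigned reads shared with these genes is not given in the sources used here, so the levels of these 4 genes are less certain.

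The promoter windows of the enzyme genes were searched for TGATGNAA, the core of the element that Atf4 and C/EBP proteins bind together, and for the E-box CACGTG, on both strands. RefSeq windows of 250 bases before to 50 bases after the annotated start were at hand for all 10 genes (GRCm38.p6, 11 windows). TGATGNAA was present in the windows of 4 of the 10 genes, or 40.0%, against 4.51% of the 27025 genes in the table, 2.56% of the 8167 tested genes that have a window and 2.91% of the 1752 genes called higher in M8 that have one. CACGTG was present in 1 of the 10 (Aldh18a1), against 8.09% of all genes in the table, 12.2% of the tested genes and 15.2% of the genes called higher in M8 that have a window. The 120 bases before the start of the 5 genes with a match are shown because they set genes that rose beside genes that did not. Each is written 5′ to 3′ on the strand of the gene, with the match in capitals.
Asns (chr6:7693210-7693329, minus strand): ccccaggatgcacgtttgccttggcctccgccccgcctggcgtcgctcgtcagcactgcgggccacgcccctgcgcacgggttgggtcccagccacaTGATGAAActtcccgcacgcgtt
Pck2 (chr14:55540146-55540265, plus strand): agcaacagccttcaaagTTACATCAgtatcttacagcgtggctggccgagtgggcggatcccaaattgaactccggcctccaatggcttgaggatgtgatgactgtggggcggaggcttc
Pycr1 (chr11:120643749-120643868, minus strand): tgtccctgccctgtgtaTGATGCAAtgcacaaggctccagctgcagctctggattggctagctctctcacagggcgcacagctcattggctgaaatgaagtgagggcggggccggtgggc
Got1 (chr19:43524606-43524725, minus strand): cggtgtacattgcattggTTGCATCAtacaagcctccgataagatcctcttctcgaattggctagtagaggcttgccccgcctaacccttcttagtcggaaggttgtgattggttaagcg
Aldh18a1 (chr19:40588464-40588583, minus strand): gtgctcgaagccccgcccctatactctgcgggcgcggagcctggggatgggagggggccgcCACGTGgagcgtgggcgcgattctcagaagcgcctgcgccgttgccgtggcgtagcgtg
The TGATGNAA match begins 103 bases before the start in Pycr1 and Pck2, 102 bases before it in Got1 and 23 bases before it in Asns, on the opposite strand in Pck2 and Got1. For Pck2 the start is that of the promoter window, 55540266, which lies just inside the gene span given above. Of the 4 genes that hold this match, Asns and Pck2 rose in M8, and Pycr1 and Got1 did not pass the test. No match was found in the windows of Phgdh, Psat1, Psph, Gpt2 and Glul, which says only that these letters are not in the windows searched.

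All 3 enzymes of serine synthesis rose, and they had the largest increases among the 10 genes. Phgdh, the dehydrogenase that opens the pathway, was the most strongly expressed of the 10, with 524, 518 and 528 FPKM in the 3 parental samples and 712, 710 and 684 FPKM in M8. The lowest M8 value was well above the highest parental value, and the replicates of a line lay close together. The mean rose from 523 ± 5.36 (SD, n = 3) to 702 ± 16.0 FPKM (SD, n = 3), a ratio of 1.34, and the log2 fold change was 0.42 (standard error, SE, 0.037, adjusted p = 0.000206 by limma). Psat1, the transaminase of the pathway, had 220, 226 and 228 FPKM in the parental samples and 315, 309 and 303 FPKM in M8, again without overlap. Its log2 fold change was 0.46 (SE 0.037, adjusted p = 0.000163 by limma), the ratio of means being 1.38. Psph, the phosphatase that releases free serine, was at 58.5, 59.5 and 62.5 FPKM in the parental samples and at 91.2, 83.5 and 85.9 FPKM in M8. It was the gene that rose most, with a ratio of 1.44 and a log2 fold change of 0.52 (SE 0.047, adjusted p = 0.000206 by limma), and 0.717% of the tested genes had a higher fold change. The ratio of Phgdh to Psph FPKM within a sample, which a scaling factor per sample leaves as it is, was 8.45 to 8.97 in parental cells and 7.81 to 8.50 in M8. The ranges overlapped through 1 M8 sample, and the M8 mean was 0.929 times the parental mean (0.905 to 0.945 with each sample left out), a difference that was not tested.

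**Figure D2:**
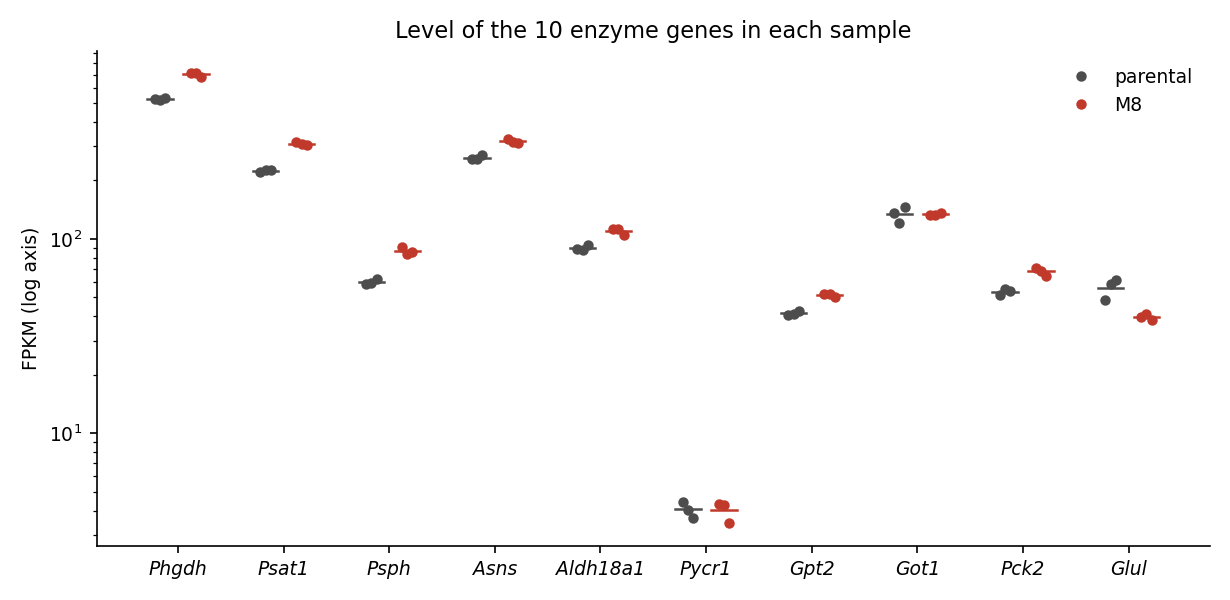
FPKM of the 10 enzyme genes in each of the 6 samples, on a log axis, with parental samples in grey and M8 samples in red. Points are samples and short lines are the means of 3 samples. The M8 samples lie above the parental samples in 7 genes and below them in Glul, and the samples of the 2 lines mix in Pycr1 and Got1.

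Asns and Glul, which both handle the amide nitrogen of glutamine, moved in opposite directions. Asns, the asparagine synthetase, had 257, 258 and 269 FPKM in the parental samples and 328, 315 and 312 FPKM in M8, so that every M8 value was above every parental value. The parental mean was 261 ± 6.90 FPKM and the M8 mean 318 ± 8.55 FPKM (SD, n = 3 each), 1.22 times as high, with a log2 fold change of 0.28 (SE 0.039, adjusted p = 0.00141 by limma). This was the smallest increase of the 7, and it was 0.16 after quantile normalization, where the gene still passed. Glul, the glutamine synthetase, was the gene of the 10 that fell. It had 48.6, 58.5 and 61.4 FPKM in the parental samples and 39.8, 40.9 and 38.3 FPKM in M8, with parental replicate 1 nearest to the M8 samples. The mean decreased from 56.2 ± 6.67 to 39.7 ± 1.35 FPKM (SD, n = 3 each), a ratio of 0.706 (log2 fold change -0.48, SE 0.077, adjusted p = 0.00240 by limma). Without parental replicate 1 the log2 fold change of Glul was -0.58, the largest decrease over the samples left out in turn. The ratio of Asns to Glul within a sample was 4.39 to 5.29 in parental cells and 7.69 to 8.22 in M8, and the M8 mean was 1.71 times the parental mean.

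Proline synthesis was divided, since its opening enzyme rose and Pycr1, which acts in its closing step, did not pass the test. Aldh18a1, the synthase that turns glutamate into the proline precursor pyrroline-5-carboxylate, had 88.7, 87.2 and 92.5 FPKM in the parental samples and 112, 112 and 104 FPKM in M8. Its values did not overlap, the ratio of means was 1.22, and the log2 fold change was 0.29 (SE 0.044, adjusted p = 0.00209 by limma). Pycr1, a mitochondrial reductase that many tumors express strongly, was the lowest of the 10 genes, with 4.45, 4.04 and 3.69 FPKM in the parental samples and 4.33, 4.29 and 3.45 FPKM in M8. The values of the lines were interleaved, and the log2 fold change of -0.01 (95% confidence interval -0.23 to 0.20, limma adjusted p = 0.932) leaves room for a small change either way. Its sign turned to positive after quantile normalization (0.064) and without parental replicate 1 or M8 replicate 3. Pycrl, the symbol of the tables for Pycr3, a cytosolic reductase, was expressed far more strongly, with a parental mean of 43.2 ± 2.28 and an M8 mean of 42.0 ± 1.43 FPKM (SD, n = 3 each). It did not pass the test either (log2 fold change -0.04, limma adjusted p = 0.589). The ratio of Pycr1 to Pycrl was 0.0811 to 0.109 in the parental samples and 0.0807 to 0.106 in M8. Of the genes for proline breakdown, Prodh was at no more than 0.248 FPKM in any sample and Prodh2 was listed at 0. Aldh4a1, the dehydrogenase that completes this breakdown, was at 1.02 to 1.05 FPKM in the parental samples and 0.547 to 1.18 FPKM in M8 and was below the filter.

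Among the transaminases, the mitochondrial alanine enzyme rose and the cytosolic aspartate enzyme did not pass the test. Gpt2, the mitochondrial alanine transaminase, had 40.6, 41.0 and 42.6 FPKM in the parental samples and 51.8, 52.3 and 50.1 FPKM in M8. The lines were clearly apart, with a ratio of 1.24 and a log2 fold change of 0.31 (SE 0.041, adjusted p = 0.00121 by limma). Its cytosolic isozyme Gpt was at 1.41 to 1.70 FPKM in the parental samples and 1.06 to 1.88 FPKM in M8, far below Gpt2, and did not pass (log2 fold change -0.10, limma adjusted p = 0.591). Got1, the cytosolic aspartate transaminase, had 136, 121 and 147 FPKM in the parental samples and 133, 133 and 136 FPKM in M8. All M8 values lay within the parental range, which was wide, with a coefficient of variation of 9.42% against a median of 5.62% for all genes tested in parental cells. The log2 fold change of Got1 was 0.00 (95% confidence interval -0.14 to 0.14, limma adjusted p = 0.988), and its sign changed with the sample left out. The mitochondrial isozyme Got2 was at 169 ± 9.70 FPKM in the parental samples and 178 ± 5.78 FPKM in M8 (SD, n = 3 each) and did not pass either (log2 fold change 0.08, limma adjusted p = 0.250).

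Pck2, the mitochondrial phosphoenolpyruvate carboxykinase, also rose. It had 51.7, 55.3 and 53.7 FPKM in the parental samples and 71.0, 68.7 and 64.8 FPKM in M8, with no overlap. The ratio was 1.27 and the log2 fold change 0.34 (SE 0.047, adjusted p = 0.00132 by limma). The cytosolic isozyme Pck1 was listed at 0 in 3 of the 6 samples and at no more than 0.244 FPKM in the others.

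**Figure D3:**
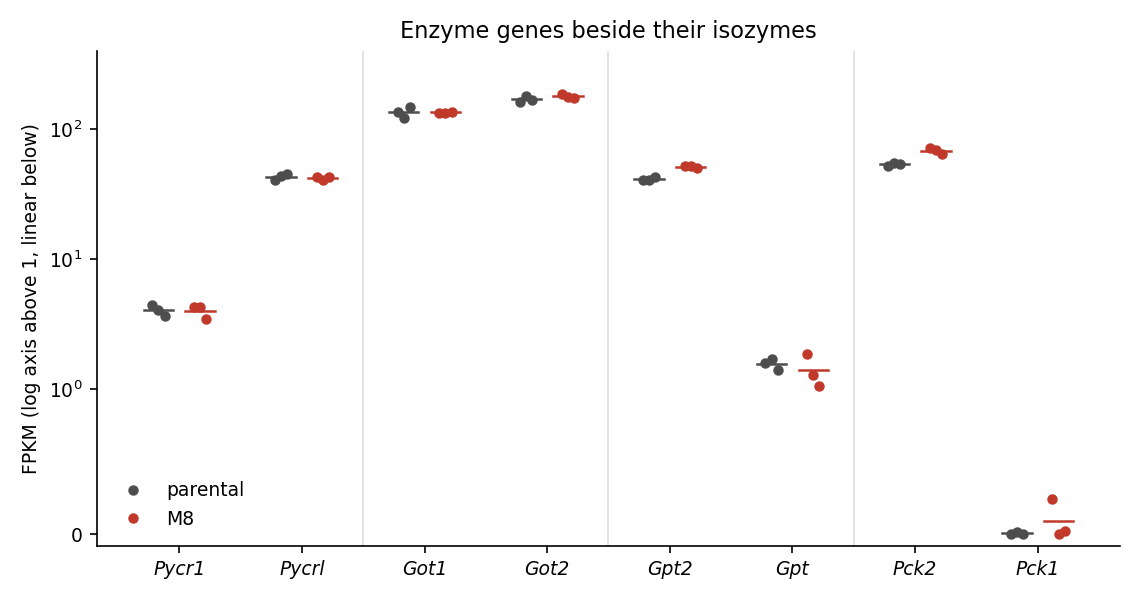
FPKM of Pycr1, Got1, Gpt2 and Pck2 beside 1 isozyme each in every sample (points) with the mean of each line (short lines), parental in grey and M8 in red. The vertical axis is logarithmic above 1 FPKM and linear below. Gpt2 and Pck2 lie far above Gpt and Pck1, and Pycr1 lies far below Pycrl.

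Since FPKM values are per length of transcript, the levels of the 10 genes can be set in order. In parental cells the order was Phgdh, Asns, Psat1, Got1, Aldh18a1, Psph, Glul, Pck2, Gpt2 and Pycr1, and neighbours were apart in every sample except that Glul overlapped both Psph and Pck2. In M8 the order was Phgdh, Asns, Psat1, Got1, Aldh18a1, Psph, Pck2, Gpt2, Glul and Pycr1, in which only Asns and Psat1 overlapped. Glul thus moved from the 7th place to the 9th, below both Pck2 and Gpt2. Phgdh ranked 143rd of the 10597 genes tested by mean level, Asns 283rd and Psat1 313th. The other genes except Pycr1 lay above 80.6% to 93.8% of the tested genes, and Pycr1 above 15.6%. The spread between replicates was small for most of the 10 genes. The coefficient of variation of the 7 genes that rose was 1.02% to 3.48% in parental cells and 1.94% to 4.61% in M8, where the medians of all genes tested were 5.62% and 4.42%. In M8, Psph (4.55%) and Pck2 (4.61%) lay above that median and the other genes that rose lay below it. The medians cover genes down to a mean of 1 FPKM, so they are not matched to the level of these genes. Glul varied most in parental cells (11.9%) and Pycr1 most in M8 (12.4%).

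The neighbouring enzymes of these pathways were read from 5 lists with 67 other genes, of which 66 matched a symbol or synonym of the tables (Nars1 did not, because its synonym is spelled in capitals) and 51 reached a mean of 1 FPKM. Among the 51, 18 were higher in M8, 4 were lower and 29 did not pass, with a median log2 fold change of 0.02. Beside the 21.2% higher and 16.5% lower of all genes tested, several of the list counts below lie near the background, and none was tested against it. The gene left out this way, listed as Nars, charges tRNA with asparagine and was higher in M8 (log2 fold change 0.25, limma adjusted p = 0.00145), and it is in none of the counts. Of 8 tested genes that use serine or glycine, 4 were higher and 1 was lower, with a median of 0.17. Shmt2, the mitochondrial serine hydroxymethyltransferase, had 169, 189 and 188 FPKM in the parental samples and 297, 269 and 267 FPKM in M8 (log2 fold change 0.61, SE 0.058, adjusted p = 0.000261 by limma). Shmt1, its cytosolic counterpart, had a log2 fold change of 0.44 (limma adjusted p = 0.00132). The paper, from its own RNA sequencing of these cells, had reported Shmt1 and Shmt2 as raised in M8. Ptdss1, which puts serine into phosphatidylserine, had a log2 fold change of 0.29 (limma adjusted p = 0.00147). Sars, which charges tRNA with serine, was higher as well, by 0.28. The lower gene was Srr, the serine racemase, at 10.2 ± 0.188 FPKM in the parental samples and 9.19 ± 0.0565 FPKM in M8 (SD, n = 3 each), and its call was lost without any 1 of 5 of the 6 samples. Amt, the glycine cleavage gene that the study disrupted in CT26 cells, was at 0.363 to 1.38 FPKM in the parental samples and 0.126 to 0.283 FPKM in M8, below the filter and not tested. Shmt2 overlaps Ndufa4l2, Ptdss1 overlaps Mterf3 and Srr overlaps Tsr1 and Smg6 in RefSeq, so that these levels are less certain.

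Among the other proline, ornithine and arginine genes, 2 of 8 tested were higher and 0 lower, with a median log2 fold change of -0.04. Odc1, the decarboxylase that opens polyamine synthesis, was higher by 0.30 (limma adjusted p = 0.00942) and Pepd, a dipeptidase that frees proline, by 0.17 (limma adjusted p = 0.0381). The count of higher genes in this list was 1 with upper-quartile scaling and without parental replicate 2, M8 replicate 1 or M8 replicate 2. No gene of the list was lower at an unadjusted p below 0.05 either, the nearest being P4ha1 (log2 fold change -0.25, unadjusted p = 0.0628 by limma). With TPM, quantile normalization or upper-quartile scaling, and without parental replicate 1, 2 genes of the list were lower, and 1 was with the replicate block. Oat, which links ornithine to the proline precursor, had 58.0 ± 1.59 FPKM in the parental samples and 55.4 ± 1.05 FPKM in M8 (SD, n = 3 each) and did not pass (limma adjusted p = 0.246).

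In the list of glutamine, glutamate, asparagine and aspartate genes, 4 of 14 tested genes were higher and 1 was lower, with a median log2 fold change of 0.00. Bcat1, the cytosolic branched-chain transaminase, was higher by 0.35 (15.3 ± 1.17 and 19.9 ± 0.604 FPKM in parental and M8 cells, SD, n = 3 each, limma adjusted p = 0.00304), and Ppat, which opens purine synthesis with the amide of glutamine, by 0.23. Aspa, a hydrolase that releases aspartate from N-acetylaspartate, fell by 0.34 on the log2 scale (limma adjusted p = 0.0179). The count of lower genes was 2 under each of the 4 other scalings, when only genes with a mean of 5 FPKM or more were kept, and without parental replicate 2. Glud1, the glutamate dehydrogenase, was at 102 ± 0.774 FPKM in the parental samples and 105 ± 0.357 FPKM in M8 (SD, n = 3 each), which did not overlap but did not pass the test (log2 fold change 0.05, limma adjusted p = 0.352). The asparaginase Aspg was listed at 0 in all samples and Asrgl1 in all but 1. Of the 9 tested genes around phosphoenolpyruvate, pyruvate and malate, 3 were higher and 1 was lower, with a median of 0.10. Eno1 (0.33), which makes phosphoenolpyruvate in glycolysis, Pcx (0.29), the pyruvate carboxylase, and Mdh2 (0.16) were higher, with limma adjusted p = 0.00453, 0.0168 and 0.0291. Me1, the cytosolic malic enzyme, fell by 0.18 on the log2 scale (limma adjusted p = 0.0197). The count of higher genes around phosphoenolpyruvate was 5 without parental replicate 2 and 2 without M8 replicate 1, where the call of Mdh2 was lost. Mdh2 was lost with quantile normalization too (0.06), where 2 genes of the list were lower. Ppat overlaps Paics, Aspa overlaps Spata22 and Pcx overlaps Lrfn4.

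Of the 12 genes of the Atf4 axis, 5 were higher in M8, 1 was lower and 6 did not pass, with a median log2 fold change of 0.08, beside 21.2% higher and 16.5% lower of all genes tested. Atf4 itself had 561, 543 and 568 FPKM in the parental samples and 649, 680 and 639 FPKM in M8. Its values did not overlap, and the log2 fold change was 0.24 (SE 0.041, adjusted p = 0.00330 by limma), beside 0.28 to 0.52 for the 7 enzyme genes that rose. Over the alternatives other than the threshold of 1.5-fold, the value for Atf4 ran from 0.12 to 0.25, and its call was never lost. Cebpb, a C/EBP factor that can pair with Atf4, rose most, by 0.72 (SE 0.14, adjusted p = 0.00498 by limma), and Sesn2, which reports leucine shortage to mTORC1, rose by 0.31. Atf5 (0.25, and 0.15 to 0.30 over the same alternatives) and Ppp1r15a (0.11, limma adjusted p = 0.0971) were the others. The call of Ppp1r15a was lost under 12 of 17 alternatives, among them TPM, quantile normalization and upper-quartile scaling. The count of lower genes was 2 with quantile normalization or upper-quartile scaling. Nupr1, a stress-induced chromatin protein, was lower by a small amount (log2 fold change -0.17, limma adjusted p = 0.0757), and its call was lost without parental replicate 3 and without any 1 of the M8 replicates. Among the genes that did not pass were the Atf4 targets Trib3 (0.02, limma adjusted p = 0.748) and Ddit3 (0.05, limma adjusted p = 0.551), and Cebpg (0.10, limma adjusted p = 0.164), another C/EBP factor. Ddit3 overlaps Mbd6 and Mars1, Atf5 overlaps Nup62 and Ppp1r15a overlaps Tulp2.

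**Figure D4:**
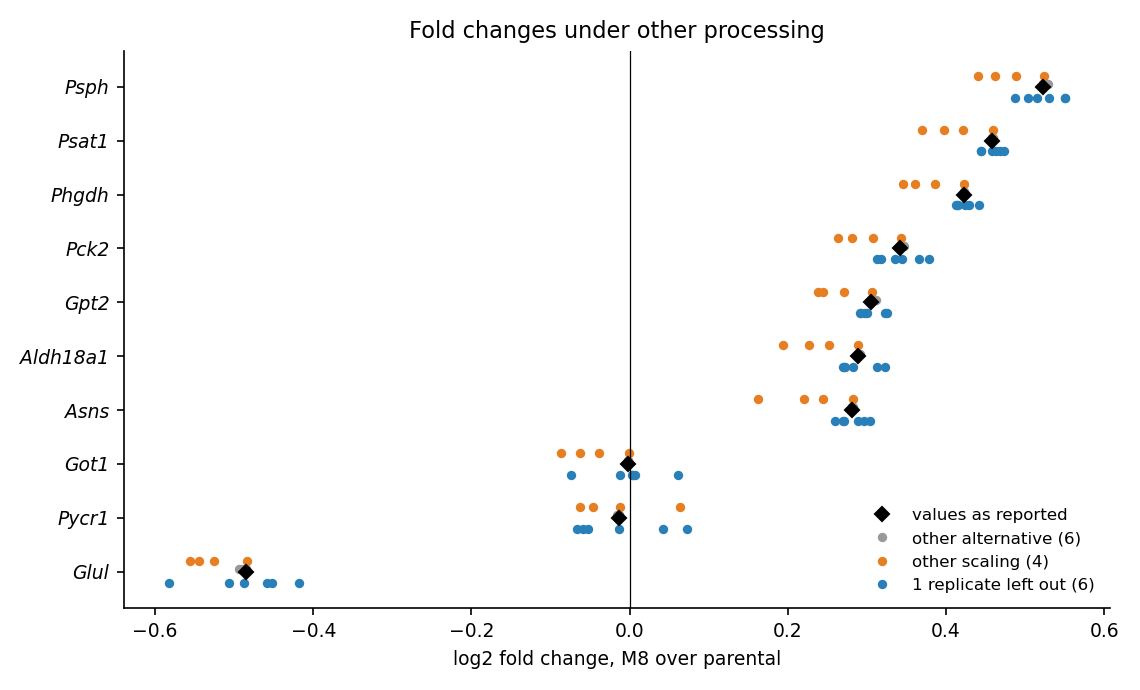
Log2 fold change of each of the 10 enzyme genes as reported (black diamonds), with the samples scaled in 4 other ways (orange), with 1 sample left out (blue) and under 6 other alternatives (grey, mostly hidden behind the diamonds). The 7 genes that rose stay above 0 and Glul stays below 0 in all of these, while Got1 and Pycr1 fall on both sides of 0.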

How the data were processed

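Stranded mRNA libraries of 3 parental and 3 M8 samples were sequenced by the authors as single reads and mapped to mm10, with TopHat2 2.1.1, Bowtie2 2.2.8 and Cuffdiff 2.2.1 named in the submitters' processing notes. The deposited values are FPKM, read numbers scaled to transcript length and library size, per gene symbol, and the annotation is not given in the sources used here. Since FPKM values are not counts, limma 3.58.1 in R 4.3.3 was fitted to log2(FPKM + 1) with an eBayes trend, for genes with a mean of at least 1 FPKM, without covariates. A fold change on this scale understates that of low genes. The threshold (adjusted p below 0.1, any fold change) was that of the study, which applied it to read counts with another tool. The calls given here are therefore not those of the study. The fit was tested on simulated data. P-values measure only the spread between these samples. The FPKM tables give no depth, so relative depth was read from the most frequent ratio between samples among low genes (11.1% to 13.4% of them share it), as an estimate, and no counting interval is given. The enzyme genes, the lists and the tests were chosen with earlier results of these data known. Genes named from the lists were isozymes, opposing enzymes, up to 3 of the largest changes past the threshold, and others chosen after their values were seen (Sars, Srr, Amt, Oat, P4ha1, Glud1, Mdh2, Atf4, Nupr1, Ppp1r15a, Trib3, Ddit3, Cebpg and Nars). Alternatives covered pseudocounts of 0.1 and 0.5, 2 filters, 4 scalings, eBayes without a trend, stricter thresholds, a block for the replicate number, and each sample left out. Motifs and positions came from RefSeq tables (GRCm38.p6), read with Python 3.11.15, pandas 2.3.3 and matplotlib 3.10.9. Some genes of the lists are counted but not reported here by name.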

Additional observations from a re-analysis of the deposited data

How the results depend on the processing

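The calls of the 10 enzyme genes held under 17 of 18 alternatives, with 7 higher and 1 lower. The exception was a fold change of at least 1.5, which 0 of them reached in either direction (log2 fold changes 0.42 for Phgdh, 0.46 for Psat1, 0.52 for Psph, 0.28 for Asns, 0.29 for Aldh18a1, 0.31 for Gpt2, 0.34 for Pck2 and -0.48 for Glul). That threshold left 42 higher and 74 lower genes over all tested, and 2 and 0 of the list genes. Got1 and Pycr1 passed under none of the alternatives, but their signs turned. Pycr1 had 0.064 after quantile normalization, and with each sample left out in turn its log2 fold change ran from -0.067 to 0.072 and that of Got1 from -0.074 to 0.062.
With each sample left out, the 10 genes again gave 7 and 1, all genes tested gave 1609 to 2101 higher and 1157 to 1672 lower, the lowest being without M8 replicate 1, and the list genes gave 15 to 19 higher and 2 to 5 lower. The count of lower list genes, 4 in the values as reported, was 2 without any 1 of the M8 replicates and at an adjusted p below 0.05, 7 with TPM and 8 with quantile normalization or upper-quartile scaling. Upper-quartile scaling gave 1470 higher and 2769 lower genes. The cause was not tested.
With the replicate number as a block there were 7 higher and 1 lower of the 10 genes and 2171 and 1688 of all genes, and the block changed no call of the 10. The correlation of same-numbered deviations was 0.10, -0.106 and -0.033, and not every sample correlated best with its own number. Whether same-numbered samples were prepared together cannot be told from these weak correlations. Pycr1 has no value under a mean FPKM of at least 5, which it does not reach. The number of reads behind a value is unknown, so no limit could be set on levels as low as those of Amt or Pck1.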

Other observations

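The 3 genes outside the 10 whose log2(FPKM + 1) over the 6 samples was most like the mean profile of the 10 enzyme genes were Rps6ka2 (Pearson's r = 0.999), S100a4 (r = 0.997) and Arhgap35 (r = 0.996), out of 8265 genes with a mean of at least 5 FPKM, not counting the 10 genes themselves and genes with only a provisional symbol (Gm and a number, names ending in Rik, and BC, AI or AU and a number). These are descriptions, since 518 of the 8265 genes had an r of at least 0.95 and the 6 points fall into 2 lines. S100a4, a calcium-binding protein linked to cell motility, had 1386, 1412 and 1504 FPKM in parental cells and 2131, 2086 and 1939 FPKM in M8, higher by 0.52 on the log2 scale (SE 0.051, adjusted p = 0.000302 by limma). Rps6ka2, a kinase of the RSK family, was higher by 0.35 (limma adjusted p = 0.00173), while Arhgap35 did not pass the test (0.08, limma adjusted p = 0.174).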
